A study of Rattus norvegicus with 8 samples.

Results

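*Hbb*, *Hba-a1* and *Hba-a2* encode chains of haemoglobin, and *Alas2* encodes the erythroid enzyme that starts haem synthesis. Their RNA was followed here in the rat *substantia nigra* (SN) after overexpression of human α-synuclein (αSyn). A probe was taken as belonging to one of these genes when its RefSeq accession on the array mapped to that symbol. This gave 4 probes, 1 for each gene, on 23 spots, out of 45598 probes on 58717 spots other than controls. The 4 probes are A_44_P306307 (NM_033234, *Hbb*), A_64_P032499 (NM_013096, *Hba-a1*), A_44_P1080832 (NM_001007722, *Hba-a2*) and A_44_P541461 (NM_013197, *Alas2*).

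The RNA came from adult female Sprague Dawley rats, 3 months old at surgery, that had received a vector into the SN on one side and were killed 20 weeks later. The AAV-αSyn group received an AAV6 vector carrying wild-type human αSyn at 5.2e10 vector genomes per µL, and the AAV-Null group received an AAV6 null vector at 5.3e9 per µL, so the transgene and the titre cannot be told apart. The promoter of the transgene was not given in the sources used here. The rats used for RNA were killed by decapitation, and the microdissected SN of the injected side was frozen, with no perfusion step described for them. Each group had 4 samples, more than the study's methods state for the arrays, and all were used. Each was put with the dye Cy3 on a one-colour Agilent rat array of its own. All 8 arrays lay on 1 slide. The labels do not say that each sample is a separate rat, so the p-values measure the spread between these samples.

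In adult mammals haemoglobin is a tetramer of 2 α-globin and 2 β-globin chains, each holding a haem group that binds oxygen. It is made by erythroid precursors in the bone marrow, and young red cells in the blood still hold globin mRNA after the nucleus is lost. Brain tissue that has not been flushed of blood therefore holds some globin RNA, and neurons, midbrain dopamine neurons among them, have also been described to express α- and β-globin. *Alas2* is the erythroid form of 5-aminolevulinate synthase, whereas *Alas1* is the form used in other tissues. These points are background and not results of these arrays.

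Promoter sequences of the 4 genes are shown because their RNA levels moved together over the arrays. Each is the run of 250 bases before the start site in the RefSeq annotation of GRCr8, read 5′ to 3′ on the strand of the gene. Capitals mark the motifs that were searched for on both strands. The core of GATA factor sites was searched as AGATAA. The core of sites of KLF factors was searched as CACCC. The box named for its letters CCAAT was the next, and the box of many start sites was searched as TATAAA. None of these matches overlaps another in the 4 windows. The windows are chr1:167663722-167663971 on the minus strand for *Hbb*, chr10:15842581-15842830 on the minus strand for *Hba-a1*, chr10:15829139-15829388 on the minus strand for *Hba-a2* and chrX:22895200-22895449 on the plus strand for *Alas2*.
Hbb: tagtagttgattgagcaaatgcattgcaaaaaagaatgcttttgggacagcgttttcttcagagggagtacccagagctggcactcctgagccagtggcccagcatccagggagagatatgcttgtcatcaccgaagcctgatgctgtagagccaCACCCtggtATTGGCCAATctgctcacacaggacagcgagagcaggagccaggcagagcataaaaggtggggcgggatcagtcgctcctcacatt
Hba-a1: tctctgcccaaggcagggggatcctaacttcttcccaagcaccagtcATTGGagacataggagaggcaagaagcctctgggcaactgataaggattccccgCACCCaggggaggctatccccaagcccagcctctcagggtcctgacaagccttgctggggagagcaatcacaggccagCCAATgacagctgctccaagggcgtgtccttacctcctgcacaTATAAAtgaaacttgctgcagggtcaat
Hba-a2: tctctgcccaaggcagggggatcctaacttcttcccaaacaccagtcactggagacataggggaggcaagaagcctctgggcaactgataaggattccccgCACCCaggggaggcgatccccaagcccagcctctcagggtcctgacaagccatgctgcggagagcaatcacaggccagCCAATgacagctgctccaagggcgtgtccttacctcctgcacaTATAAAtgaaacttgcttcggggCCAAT
Alas2: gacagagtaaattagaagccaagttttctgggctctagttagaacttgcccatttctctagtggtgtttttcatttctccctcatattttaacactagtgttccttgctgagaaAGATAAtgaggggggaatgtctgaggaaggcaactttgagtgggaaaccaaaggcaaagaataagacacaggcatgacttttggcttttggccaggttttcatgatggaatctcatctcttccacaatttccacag
The *Hba-a1* and *Hba-a2* windows were identical at 241 of 250 positions (96.4%), and the other pairs of windows at 20.0% to 23.2%. The 3 globin windows each held CACCC and CCAAT, both *Hba* windows held TATAAA at bases 28 to 23 before the start, and *Alas2* held AGATAA at bases 136 to 131 before it. Of 33469 windows of this length in the table, 49.2% held CACCC, 34.0% held CCAAT, 12.9% held TATAAA and 10.3% held AGATAA. A match is a run of letters and not a measured site.

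All 4 probes were well above background on all 8 arrays, and 0 of their spots were saturated. Before normalization between arrays, *Hba-a1* had a mean intensity of 88686 to 226554 arbitrary units, *Hba-a2* of 3973 to 12622, *Hbb* of 2561 to 9752 and *Alas2* of 433 to 1682. These ranges are not levels of one gene against another, because each probe binds with its own strength. *Hba-a1* and *Hba-a2* are each printed on 10 spots, and the log2 intensities of these spots had a median SD of 0.051 and 0.054 within an array. *Hbb* is on 2 spots with a median SD of 0.017 and *Alas2* is on 1 spot. Of the arrays as a whole, 74.8% to 77.5% of the spots were well above background. AAV-Null replicate 3 stood apart, with the highest of the 8 values at 25.8% of probes and the lowest at 28.1%, against 5.01% to 18.6% and 5.34% to 15.7% on the other arrays.

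In the SN the haemoglobin genes varied widely between the rats' samples and did not separate the groups. Values are quantile-normalized log2 intensities. *Hbb*, the β-globin chain, was 12.55, 13.30, 13.15 and 11.26 on the AAV-Null arrays and 11.92, 12.11, 12.92 and 11.96 on the AAV-αSyn arrays, here and below in the order of replicates 1 to 4. The highest and the lowest value both lay in the AAV-Null group, and all AAV-αSyn values fell between them. The AAV-Null mean was 12.56 ± 0.93 (SD, n = 4) and the AAV-αSyn mean 12.23 ± 0.47 (SD, n = 4). This is a log2 fold change of −0.33 (standard error 0.45, 95% confidence interval −1.37 to 0.71). By limma's test the unadjusted p was 0.483, and the Benjamini–Hochberg adjusted p over 33853 probes was 0.974. The exact permutation test of the means, two-sided, gave p = 0.571, where 4 arrays against 4 allow no p below 0.0286.

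*Hba-a1*, an α-globin chain, was 17.41, 17.71, 17.02 and 16.38 on the AAV-Null arrays and 16.83, 16.91, 17.35 and 16.94 on the AAV-αSyn arrays. Here too AAV-Null replicate 2 was highest and AAV-Null replicate 4 lowest. The group means were 17.13 ± 0.57 (SD, n = 4) and 17.01 ± 0.23 (SD, n = 4), and the log2 fold change was −0.12 (95% confidence interval −0.75 to 0.50, adjusted p = 0.987 from limma's test). *Hba-a2*, the other α-globin gene, was 13.14, 13.67, 12.90 and 11.87 on the AAV-Null arrays and 12.37, 12.56, 13.17 and 12.54 on the AAV-αSyn arrays. It had the same order of arrays at both ends, with a log2 fold change of −0.23 (95% confidence interval −1.07 to 0.60, adjusted p = 0.977 from limma's test). The names of the 2 *Hba* probes follow the array's accessions. The files hold no probe sequences, so how far each probe binds RNA of the other haemoglobin genes was not tested.

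*Alas2*, the erythroid enzyme, was 10.16, 10.76, 10.22 and 8.72 on the AAV-Null arrays and 9.51, 9.59, 10.44 and 9.31 on the AAV-αSyn arrays. Its lowest and highest arrays were those of the globins. The means were 9.97 ± 0.87 (SD, n = 4) and 9.71 ± 0.50 (SD, n = 4), which differ by −0.25 on the log2 scale (95% confidence interval −1.26 to 0.75, adjusted p = 0.979 from limma's test). Of the 4 members, 0 had an unadjusted p under 0.05 in limma's test, where 5.64% of all probes did, 0 had an adjusted p under 0.05, where 0.0148% did, and 0 had groups that did not overlap, where 3.83% of all probes did. The confidence intervals reach differences of more than 1 log2 unit downwards for *Hbb*, *Hba-a2* and *Alas2*, so these arrays do not bound the difference closely.

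**Figure D1:**
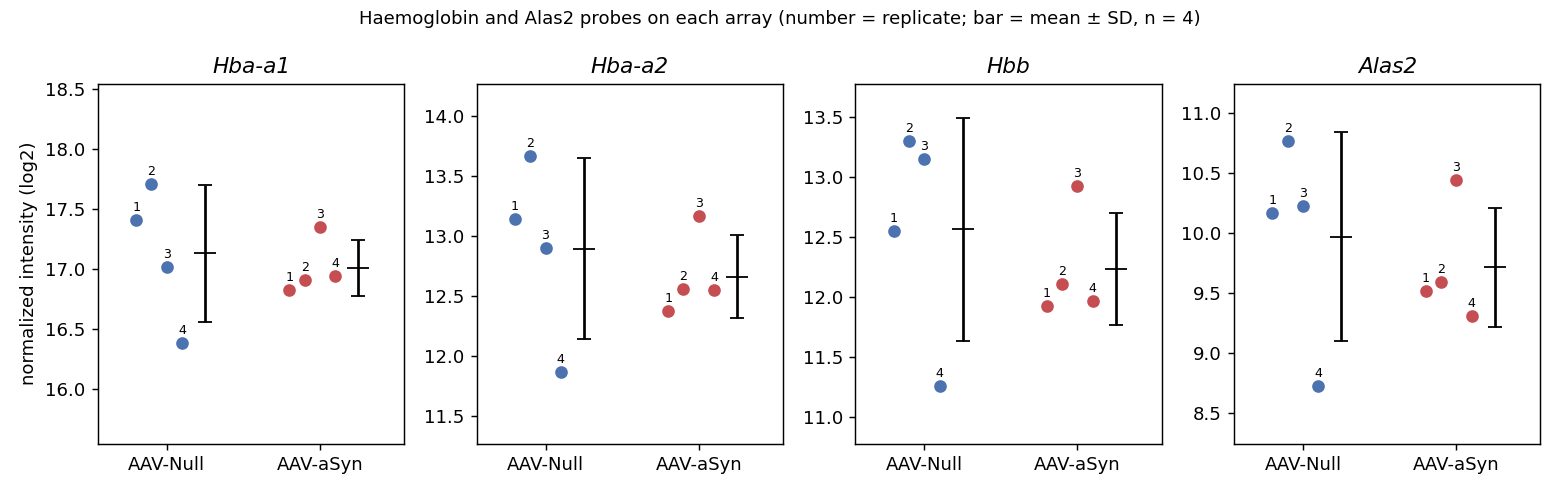
Quantile-normalized log2 intensity of the 4 probes on each array, with AAV-Null in blue, AAV-αSyn in red, the replicate number above each point and the mean ± SD (n = 4) beside it. Each panel spans 3 log2 units. In every panel AAV-Null replicates 2 and 4 are the highest and lowest points and the AAV-αSyn points lie between them.

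Leaving out single arrays changed the size of these differences, and the sign for *Hba-a1*, *Hba-a2* and *Alas2*. Without AAV-Null replicate 4, the lowest array, the log2 fold change of *Hbb* was −0.77 (unadjusted p = 0.0340 and adjusted p = 0.585 in limma's test). In the same comparison *Hba-a1* was at −0.37, *Hba-a2* at −0.57 and *Alas2* at −0.67. Without AAV-Null replicate 2, the highest array, *Hbb* was at −0.09, *Hba-a1* at 0.07, *Hba-a2* at 0.03 and *Alas2* at 0.01. Without AAV-Null replicate 3 *Hbb* was at −0.14, and without AAV-αSyn replicate 3 it was at −0.56. Among the 4 AAV-Null and 4 AAV-αSyn arrays left out in turn, no member reached an adjusted p below 0.585.

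**Figure D2:**
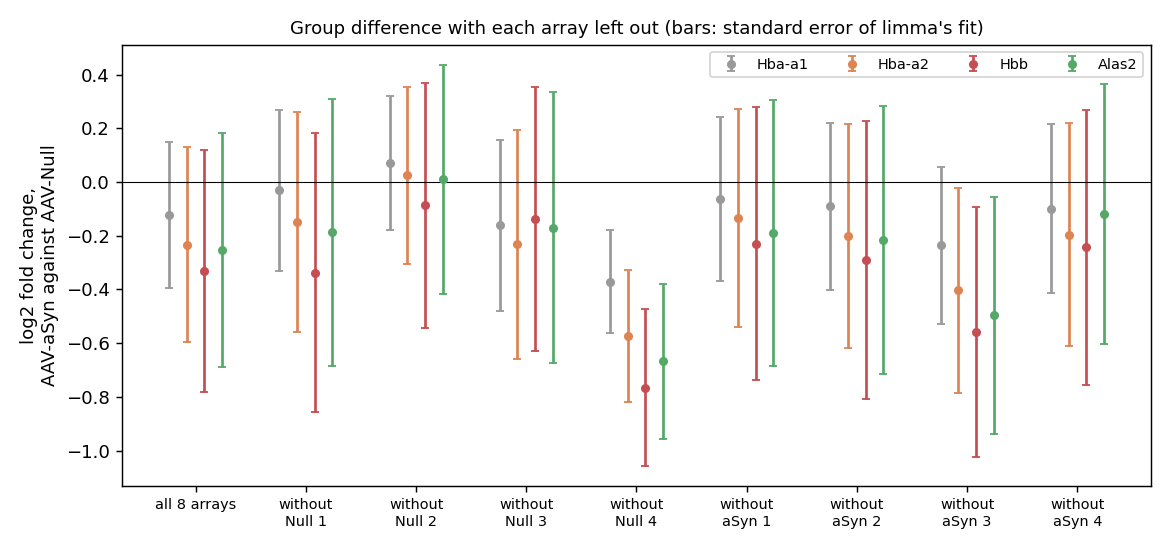
Log2 fold change of each member (AAV-αSyn against AAV-Null) with all 8 arrays and with each array left out in turn, with bars for the standard error of limma's fit. The 4 members move together: down without AAV-Null replicate 4, where *Hbb* is at −0.77, and to near 0 or above without AAV-Null replicate 2.

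The arrays lie on the slide in 2 columns and 4 rows, and each column holds 2 arrays of each group. In one column *Hbb* differed between the groups by 0.15 on the log2 scale and in the other by −0.81, and *Alas2* by 0.23 and −0.74. *Hba-a1* differed by 0.04 and −0.29, and *Hba-a2* by 0.00 and −0.47. Each row holds the pair of arrays with the same replicate number. *Alas2*, *Hba-a1* and *Hba-a2* were lower in AAV-αSyn in rows 1 and 2 and higher in rows 3 and 4, whereas *Hbb* was lower in rows 1 to 3 and higher, by 0.71, in row 4.

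The spread within groups was large for probes of this brightness. The SD within groups was 0.73 for *Hbb*, 0.44 for *Hba-a1*, 0.59 for *Hba-a2* and 0.71 for *Alas2*, on the log2 scale, where the median over all probes tested was 0.19. *Hbb* lay above 96.1% of all probes tested, and above 99.7% of the 4352 probes whose mean level was within 1 log2 unit of its own. *Hba-a1* lay above all of the 256 probes of like level, *Hba-a2* above 99.6% of 3806 and *Alas2* above 99.5% of 6612. Between the lowest and highest array *Hbb* and *Alas2* each differed 4.11-fold and 4.10-fold, *Hba-a2* 3.49-fold and *Hba-a1* 2.50-fold. The whole of these ranges lay within the AAV-Null group. Within the AAV-αSyn group the ranges were 2.00-fold for *Hbb*, 2.19-fold for *Alas2*, 1.74-fold for *Hba-a2* and 1.44-fold for *Hba-a1*. Whether the groups differ in spread was not tested.

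The 4 genes moved together from array to array. Over the 8 arrays the r of *Hbb* with *Alas2* was 0.970 and Spearman's rho was 0.952 (exact permutation test, two-sided, p = 0.000322 for r and 0.00114 for rho). After adjustment over the 12 measures set against *Hbb* these were p = 0.00387 and 0.0137 in the exact permutation test. Without AAV-Null replicates 2 and 4, the arrays farthest from the median of *Hbb*, r was 0.923, and r of the deviations from the group means was 0.970. With *Hba-a1*, *Hbb* had r = 0.858 and rho = 0.881 (exact permutation test, two-sided, p = 0.00747 and 0.00724, adjusted 0.0448 and 0.0435). Without the same 2 arrays this r was 0.592, so the relation with *Hba-a1* rests in part on them. Without AAV-Null replicate 3 it was 0.976. It did not pass the adjustment in the matrix of processed values (r = 0.839), without normalization between arrays (0.842) or with any of 6 of the 8 arrays left out (0.749 to 0.862). As a description over the same 8 arrays, the 6 pairs among the 4 members had r of 0.858 to 0.987, with *Hba-a1* and *Hba-a2* the closest pair.

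*Hbb* differed most from the other haemoglobin probes on AAV-Null replicate 3. The comparison takes each probe's deviation from its own mean over the 8 arrays, on the log2 scale. On that array *Hbb* was at 0.75 and *Alas2* at 0.38, whereas the 8 other bright haemoglobin probes, those of *Hba-a1* and *Hba-a2* included, lay between −0.18 and 0.20. On AAV-Null replicate 2 *Hbb* was at 0.90 and the 8 probes at 0.62 to 0.98. On AAV-Null replicate 4 *Hbb* was at −1.14 and they were at −1.11 to −0.54. On AAV-Null replicate 1 *Hbb*, at 0.15, was below all 8 probes, which were at 0.34 to 0.58. On the AAV-αSyn arrays *Hbb* lay just outside their range each time, within 0.21 of their median, as on replicate 1 at −0.47 against −0.42 to −0.22. AAV-Null replicate 3 is the array that stood apart over all probes, and the part of that in the *Hbb* value was not tested.

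**Figure D3:**
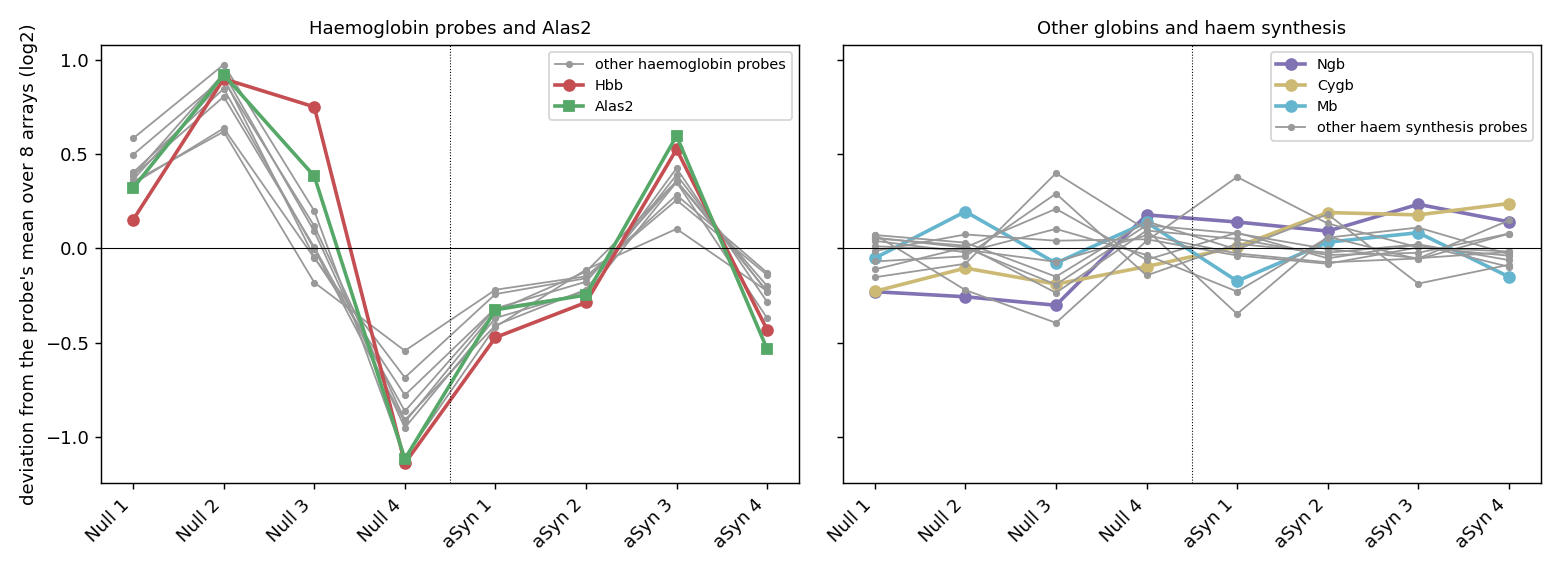
Deviation of each probe from its mean over the 8 arrays (log2), array by array, for haemoglobin probes and *Alas2* on the left and for other globins and the other haem synthesis genes on the right, on one scale. The haemoglobin probes and *Alas2* run together from about 1 above to about 1 below their means, with *Hbb* alone at 0.75 on AAV-Null replicate 3.

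Other globin genes on the array fell into those that followed the members and those that did not. Of 15 other globins listed, 10 were on the array and 9 were tested. *Hbbl1*, a haemoglobin gene that the list did not hold, was added after its values were seen. *Hbb-b1* and *Hbb-bs* are adult β-globin genes, *Hbe2* is named as an embryonic β-like gene and *Hba-a3* as an α-globin gene. *Hbe2* ranged from 13.44 on AAV-Null replicate 4 to 15.32 on AAV-Null replicate 2, *Hba-a3* from 8.19 to 10.27 and *Hbb-bs* from 13.01 to 14.69 on the same arrays. The brighter *Hbb-b1* probe differed 3.18-fold between these arrays. None of these genes differed between the groups at an unadjusted p under 0.05 in limma's test, where 5.64% of all probes did. The log2 fold changes were −0.33 to −0.13 for the 6 probes of *Hba-a3*, *Hbb-b1*, *Hbb-bs*, *Hbbl1* and *Hbe2*. Between pairs of the bright haemoglobin probes other than *Hbb*, *Alas2* left out, r over the 8 arrays was 0.924 to 0.999 over 28 pairs, with a median of 0.984. Since probes for related chains may bind the same RNA, these pairs are not separate measurements. *Hbz* (an embryonic α-like chain) and *Hbg1* were at 3.63 to 5.01 and 3.72 to 4.55 and did not follow *Hbb*, with r of −0.23 and 0.18. A second *Hbz* probe and the *Hbe1* probe were above background on no array.

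The globins *Cygb*, *Ngb* and *Mb*, which are not chains of haemoglobin, took another course. *Cygb*, encoding cytoglobin, was 14.31, 14.43, 14.35 and 14.44 on the AAV-Null arrays and 14.54, 14.73, 14.71 and 14.77 on the AAV-αSyn arrays. Every AAV-αSyn array was higher than every AAV-Null array, where 3.83% of all probes had groups that did not overlap, and the difference was 0.31 on the log2 scale (standard error 0.078, unadjusted p = 0.00400 and adjusted p = 0.605 in limma's test). *Ngb*, encoding the neuronal globin neuroglobin, was 11.06, 11.04, 10.99 and 11.47 on the AAV-Null arrays and 11.43, 11.39, 11.53 and 11.44 on the AAV-αSyn arrays. Its groups overlapped through AAV-Null replicate 4 alone, and the difference was 0.30 on the log2 scale (standard error 0.11, unadjusted p = 0.0290 and adjusted p = 0.835 in limma's test). Of all probes tested, 3.31% were higher in AAV-αSyn at an unadjusted p under 0.05. *Mb*, encoding myoglobin, was between 9.25 and 9.61 on all arrays with no order by group (log2 fold change −0.10). Over the 27 pairs of *Ngb*, *Cygb* or *Mb* with a bright haemoglobin probe, *Hbb* included, r was −0.731 to 0.347.

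The remaining enzymes of haem synthesis did not share the spread of *Alas2*. The list held 9 enzymes and all 9 were tested, each on its brightest probe. None had an unadjusted p under 0.05 in limma's test, where 5.64% of all probes did. *Alas1*, the non-erythroid counterpart of *Alas2*, was between 13.37 and 13.59 on all arrays, a range of 1.17-fold against the 4.10-fold range of *Alas2*. The next enzyme, *Alad*, ranged 1.24-fold. *Uros* ranged 1.27-fold, *Urod* 1.26-fold and *Cpox* 1.71-fold, and *Cpox* had the largest difference of these genes between the groups, 0.25 on the log2 scale (adjusted p = 0.938 in limma's test). *Ppox* ranged 1.29-fold, and *Fech*, which puts iron into the ring, 1.11-fold. Among the enzymes named here other than *Alas2*, r with *Hbb* lay between −0.692 for *Alad* and 0.501 for *Uros*. *Alad* and *Ppox* have a second probe each, with log2 fold changes of −0.02 and −0.13 and ranges of 1.35-fold and 1.68-fold. Both second probes were highest on AAV-Null replicate 3, where the brighter *Alad* probe was lowest. The r with *Hbb* given for these genes therefore holds for the brighter probe only.

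Genes of haem transport and breakdown were measured at 14 of 15. One of them, *Abcg2*, a transporter that can export haem, was lower at an unadjusted p under 0.05 in limma's test (a difference of −0.25 on the log2 scale, standard error 0.11, adjusted p = 0.877), where 2.32% of all probes were lower at that threshold. *Hmox1* and *Hmox2*, the haem oxygenases, are named after their values were seen, with log2 fold changes of 0.17 and −0.04. None of the 14 had an r with *Hbb* of 0.7 or more, where 5.29% of all probes tested did. Their r ranged from −0.783 to 0.523. The most negative, named after their values were seen, were *Hp* (−0.783), *Blvra* (−0.774) and *Abcb10* (−0.705).

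Dopamine neuron markers were lower in part. Of 11 tested, 6 were lower in AAV-αSyn at an unadjusted p under 0.05, where 2.32% of all probes were, and 4 had groups that did not overlap, where 3.83% of all probes did. After adjustment over all probes 0 of the 11 passed in limma's test. *Th*, encoding tyrosine hydroxylase, was 16.70, 16.51, 16.30 and 16.43 on the AAV-Null arrays and 15.99, 15.99, 16.01 and 15.88 on the AAV-αSyn arrays. These groups did not overlap, unlike those of the haemoglobin genes. *Slc6a3*, encoding the dopamine transporter, was 11.25, 10.80, 11.39 and 10.32 on the AAV-Null arrays and 9.96, 10.09, 10.60 and 9.94 on the AAV-αSyn arrays. The 4 with the smallest p were *Th*, *Foxa1*, *Drd2* and *Pitx3*, at log2 fold changes of −0.52, −0.66, −0.33 and −0.78 (adjusted p = 0.484, 0.649, 0.661 and 0.747 in limma's test). In bulk tissue fewer cells of a type and less RNA per cell cannot be told apart.

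*Hbb* was set against *Th* and *Slc6a3* over the arrays. With *Th* r was 0.248 and rho 0.429 (exact permutation test, two-sided, p = 0.550 and 0.299, adjusted 0.554 and 0.359), and r was 0.458 without AAV-Null replicates 2 and 4. With *Slc6a3* r was 0.691 and rho 0.714 (exact permutation test, two-sided, p = 0.0626 and 0.0576, adjusted 0.250 and 0.230), and r was 0.851 without those 2 arrays. Neither relation passed the adjustment. With 1 array left out at a time r was 0.0629 to 0.587 for *Th* and 0.599 to 0.784 for *Slc6a3*, and r of the deviations from the group means was 0.041 and 0.782. The mean level of the dopamine neuron list had r = 0.475 with *Hbb* (exact permutation test, adjusted p = 0.419). On AAV-Null replicate 4, where all 4 members were lowest, *Th* was at 16.43, above every AAV-αSyn array, whereas *Slc6a3* was at its AAV-Null low of 10.32, below AAV-αSyn replicate 3. The mean level of the dopamine neuron list was also lowest of the AAV-Null arrays there, at 11.35, against 10.96 to 11.25 on the AAV-αSyn arrays.

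**Figure D4:**
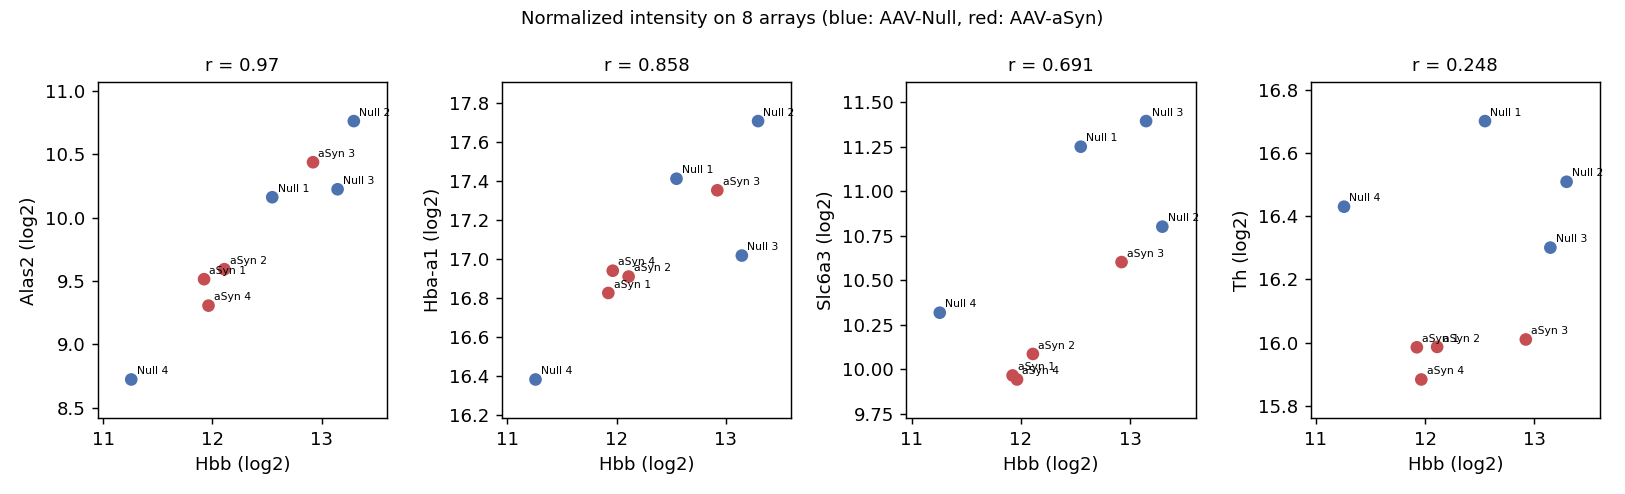
Normalized log2 intensity of *Alas2*, *Hba-a1*, *Slc6a3* and *Th* against *Hbb* on the 8 arrays, each point labelled with its array, AAV-Null in blue and AAV-αSyn in red. The points follow a line for *Alas2* (r = 0.970), leave it at AAV-Null replicate 3 for *Hba-a1* (r = 0.858), and for *Th* (r = 0.248) the groups separate on the vertical axis.

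Markers of red cells and erythroid precursors were mostly dim. Of 30 genes listed, 25 were on the array, 21 were tested and 18 were above background on all 8 arrays. *Gata1*, *Gfi1b*, *Rhag* and *Xk* were on the array and above background on none. One gene, *Kel*, was lower at an unadjusted p under 0.05 in limma's test, where 2.32% of all probes were (log2 fold change −1.17, standard error 0.47, adjusted p = 0.852), but 1 AAV-Null array and 0 AAV-αSyn arrays had it above background, so that its size is not a measured fold. Chosen after their values were seen, *Ahsp*, the α-globin chaperone, was at 7.50 to 8.31 in AAV-Null and 7.21 to 8.04 in AAV-αSyn, and *Slc4a1*, the band 3 anion exchanger, was at 4.41 to 5.50 and 4.26 to 5.68. Their r with *Hbb* was 0.509 and 0.623, and with *Hba-a1* 0.689 and 0.757. The brightest genes of the list, *Bpgm* and *Car2*, of which oligodendrocytes also express *Car2*, had r of −0.348 and −0.054 with *Hbb*. The mean level of the list was 7.30 to 7.54 in AAV-Null and 7.28 to 7.39 in AAV-αSyn, and its r with *Hbb* was 0.575 (exact permutation test, two-sided, p = 0.151, adjusted 0.362). With arrays scaled by their 75th percentile this r was 0.880 (exact permutation test, adjusted p = 0.0228), but it was 0.414 without normalization between arrays and 0.424 with the normexp background. With 1 array left out it was 0.369, without AAV-Null replicate 2, to 0.805, without AAV-Null replicate 3, and passed the adjustment in no case. The part of residual blood in the haemoglobin values was not tested.

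Markers of other cells that blood or a vessel could bring were measured on the same arrays. White cell genes were tested at 11 of 24, and 0 had an unadjusted p under 0.05 in limma's test, where 5.64% of all probes did. *Ptprc*, the common leukocyte antigen, was at 7.41 to 8.24 in AAV-Null and 7.65 to 8.40 in AAV-αSyn, and *Plac8* at 9.51 to 10.41 and 7.68 to 11.04. The list's mean level had r = −0.250 with *Hbb* (exact permutation test, adjusted p = 0.554), or −0.075 without AAV-αSyn replicate 1 and −0.502 without AAV-αSyn replicate 4. Platelet genes were tested at 4 of 10, and 0 had an unadjusted p under 0.05 in limma's test, against the same 5.64% of all probes. The platelet list had r = 0.330 with *Hbb*, or −0.212 without AAV-Null replicate 2 and 0.544 when AAV-αSyn replicate 3 was left out. *Pf4*, a platelet chemokine, was highest on AAV-Null replicate 2 at 10.23 and between 8.09 and 8.84 on the other arrays, and *Gp5* was between 5.34 and 6.47. AAV-Null replicate 2 was also the array with the highest level of all 4 members, and of the meninges and perivascular fibroblast list at 9.48. On AAV-Null replicate 4, where the members were lowest, *Pf4* was at 8.71, and its r with *Hbb* over the 8 arrays was 0.257.

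Of 16 endothelial genes tested, *Kdr*, a receptor of vascular endothelial growth factor, was higher at an unadjusted p under 0.05 in limma's test, by 0.27 on the log2 scale (standard error 0.090, adjusted p = 0.771), and had groups that did not overlap. Of all probes tested 3.31% were higher at that threshold and 3.83% had groups that did not overlap. The list's mean level was 9.36 to 9.59 in AAV-Null and 9.49 to 9.66 in AAV-αSyn, with r = 0.319 to *Hbb*. This r was −0.0864 without AAV-Null replicate 4 and 0.601 when AAV-αSyn replicate 1 was left out. Of 10 pericyte and smooth muscle genes 0 had an unadjusted p under 0.05 in limma's test, where 5.64% of all probes did. The brightest were *Vtn*, at a log2 fold change of 0.08, and *Kcnj8*, at 0.01. That list had r = 0.605 with *Hbb* (exact permutation test, two-sided, p = 0.112, adjusted 0.336). Without normalization between arrays this r was 0.209, and that of the endothelial list was 0.0030. In the pericyte and smooth muscle list 3 of 10 genes had an r of 0.7 or more with *Hbb*, against 5.29% of all probes tested. In the endothelial list these were 2 of 16 and in the red cell list 1 of 21. With *Hba-a1* the 3 pericyte and smooth muscle genes, named after their values were seen, had lower r. It was 0.494 for *Acta2*, 0.474 for *Rgs5* and 0.713 for *Tagln*. The 2 endothelial genes, *Cdh5* and *Nostrin*, had 0.577 and 0.538 with *Hba-a1*. The red cell gene, *Nfe2*, had 0.842 with *Hba-a1* but passed the background limit on 1 of the 8 arrays, an AAV-Null one. Of 11 genes of meninges and perivascular fibroblasts 0 had an unadjusted p under 0.05 in limma's test, where 5.64% of all probes did. The brightest were *Igf2* and *Col1a2*, at log2 fold changes of −0.23 and −0.21. This list had r = 0.292 with *Hbb*, or 0.561 without AAV-Null replicate 3 and −0.285 without AAV-Null replicate 2. Of 8 choroid plexus genes *Sostdc1* (log2 fold change 1.38) and *Slc4a5* (0.43) were higher and *Otx2* (−0.49), which other midbrain cells express too, was lower at an unadjusted p under 0.05 in limma's test (lowest adjusted p = 0.484). The shares of all probes were 3.31% higher and 2.32% lower, and *Sostdc1* and *Otx2* had groups that did not overlap. That list had r = −0.470 with *Hbb*. The 4 lists named in this paragraph had adjusted p of 0.336 to 0.554 for these r in the exact permutation test, within the 12 measures.

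**Figure D5:**
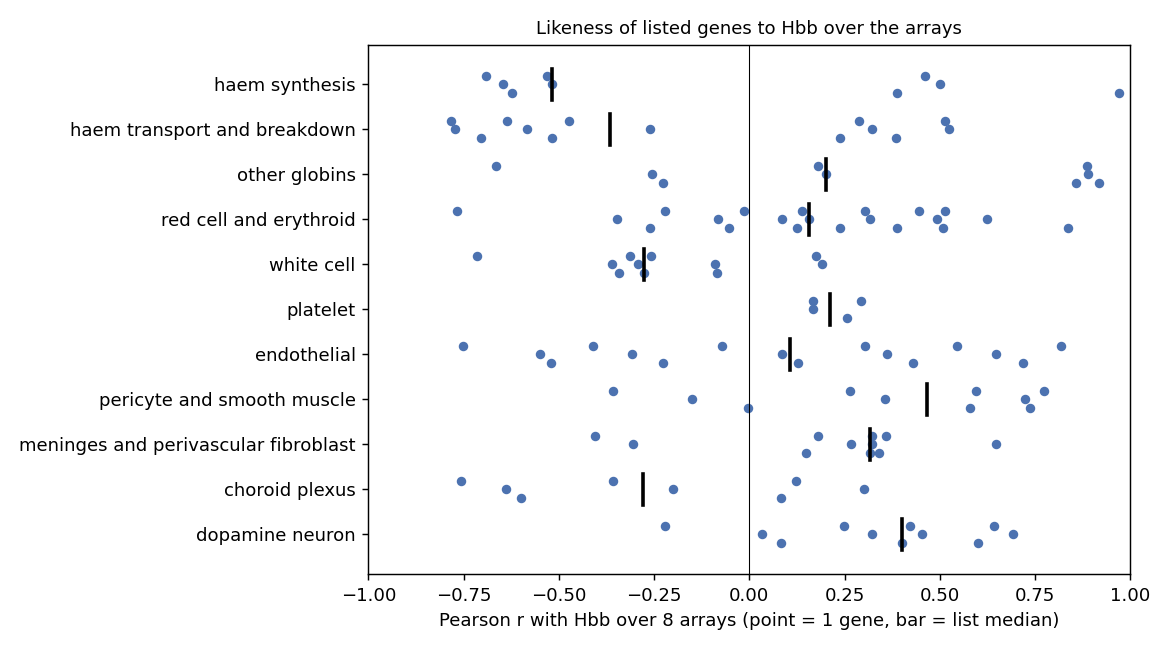
Pearson r with *Hbb* over the 8 arrays for each tested gene of the 11 lists, as points, with the median of each list as a bar. In haem synthesis 1 of 9 genes, *Alas2* at 0.970, stands at the right end, and among the other globins 4 haemoglobin genes lie between 0.856 and 0.918.

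The genes whose pattern over the arrays was most like that of *Hbb* were sought among 4241 named genes above background on all 8 arrays with an SD of at least 0.2, the members left out. Of these, 14 had an r of 0.9 or more. The first 10 were *Rita1* (0.960), *Rln3* (0.952), *Tanc1* (0.940), *Alox15* (0.929), *Hmx1* (0.927), *Rnf144a* (0.926), *Hes7* (0.925), *Parvb* (0.922), *Zdhhc18* (0.920) and *Hbe2* (0.918). *Alox15* encodes a lipoxygenase that reticulocytes hold, and its level was 4.63 to 5.82. *Rln3*, a relaxin peptide of brainstem neurons, ranged from 5.23 to 7.37. The haemoglobin genes *Hbb-b1*, *Hba-a3*, *Hbb-bs* and *Hbbl1* ranked 19, 22, 41 and 127, *Slc6a3* ranked 274 and *Th* 1718. When *Hba-a1* was used in place of *Hbb*, a choice made after the values were seen, *Hbb-b1*, *Hbe2*, *Hbbl1*, *Hbb-bs* and *Hba-a3* took ranks 1 to 5 with r of 0.962 to 0.998, and *Polb* followed at 0.929. With 8 arrays and 4241 genes, high values of r arise for some genes in any case, and these are a description with no test.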

How the data were processed

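RNA of 8 SN samples was measured on one-colour Agilent arrays, 4 AAV-αSyn and 4 AAV-Null, with groups taken from the labels. The deposited scanner files hold intensity values per spot, corrected for background within the array by the authors with Feature Extraction (11.5.1.1 per the labels, 12.0.3.2 per the file headers). The deposited matrix holds log2 values that the authors quantile normalized. The authors' methods name limma, quantile normalization and removal of control and under-threshold spots.

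From the processed intensity, control and outlier spots were left out. Probes with at least 0.5 of their spots well above background on at least 1 array were kept, log2 values were quantile normalized, and spots of a probe were averaged. Groups were compared by lmFit and eBayes (limma 3.58.1, R 4.3.3), two-sided, with Benjamini–Hochberg adjustment over 33853 probes and 0.05 as the threshold. Correlations and differences in means over arrays used exact permutation tests, two-sided. The number of arrays limits the precision. Symbols came from a RefSeq table of GRCr8, which named 21229 of 45598 probes. A gene is represented by its brightest probe.

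Named genes were every member probe, all haem synthesis genes and other globins, *Th* and *Slc6a3*, up to 4 genes of each list with an unadjusted p under 0.05 or else the 2 brightest, and the 10 genes most like *Hbb*. One gene that falls under these choices is not reported. The members and lists were chosen with earlier results of these data known. Alternatives were other scalings, background correction by normexp (offset 50), other filters, the deposited matrix, other variance models, the replicate number or slide column as a block, and each array left out. The procedure was tested on simulated data.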

Additional observations from a re-analysis of the deposited data

Results flagged for a closer look

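In groups of 4 arrays, the gap between the extreme array and its nearest neighbour was set against the group's range, with Dixon's 95% critical value as the limit. Of 80 groups examined 5 passed it, where chance gives 4. *Ngb* in AAV-Null gave 0.850, with replicate 4 at 11.47 and the others at 10.99 to 11.06. *Parvb* gave 0.905 in AAV-Null, with replicate 4 at 8.64 and the others at 9.19 to 9.25, and 0.895 in AAV-αSyn, with replicate 3 at 9.11 and the others at 8.95 to 8.97. *Zdhhc18* gave 0.873 in AAV-Null, with replicate 4 at 13.31 and the others at 14.16 to 14.28. The pericyte and smooth muscle list gave 0.887 in AAV-αSyn, with replicate 2 at 9.34 and the others at 9.55 to 9.58. AAV-Null replicate 4 and AAV-αSyn replicate 3 were the lowest and the highest array of their group for *Hbb* too, and *Parvb* and *Zdhhc18* were chosen for their likeness to *Hbb*. *Hbb* itself gave 0.633 in AAV-Null and 0.814 in AAV-αSyn, both under the limit.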

How the results depend on the processing

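Over 13 alternatives, array omission aside, the log2 fold change stayed negative for all 4 members, at −0.62 to −0.27 for *Hbb*, −0.43 to −0.12 for *Hba-a1*, −0.62 to −0.18 for *Hba-a2* and −0.63 to −0.19 for *Alas2*, with no adjusted p below 0.435 in limma's test. The largest differences came from array weights. With each array left out the ranges were −0.77 to −0.09, −0.37 to 0.071, −0.57 to 0.025 and −0.67 to 0.0099, in the same order. The sign turned without AAV-Null replicate 2 for *Hba-a1* (0.071), *Hba-a2* (0.025) and *Alas2* (0.0099). The number of probes with an unadjusted p under 0.05 was 4607 with array weights and 1446 to 2798 with an array left out. The number past the adjustment was 12 with array weights, 3 with the slide column as a block, 0 with the replicate block (limma, of 33853 probes) and 3 to 5 with an array left out. In the replicate block fit *Hbb* had an unadjusted p of 0.342 in limma's test, and that block changed no call of a member. Samples that share a number deviated together with correlations of 0.144, 0.267, 0.041 and −0.0022, and 2 of the 4 were closest to their own number, so the numbers were not used as pairs.

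The r of *Hbb* with *Hba-a1* missed the adjustment without normalization between arrays (0.842, adjusted p = 0.0579 in the exact permutation test) and in the deposited matrix (0.839, adjusted p = 0.0598), and with 6 of the 8 arrays left out in turn (0.749 to 0.862). Over all 8 omissions it was 0.749 to 0.976. The r with *Alas2* was 0.948 to 0.992 with an array left out and passed the adjustment each time. The r of 3 lists with *Hbb* turned sign without 1 array. It was −0.212 to 0.544 for the platelet list and −0.285 to 0.561 for the meninges and perivascular fibroblast list, both lowest without AAV-Null replicate 2. It was −0.0864 to 0.601 for the endothelial list, lowest without AAV-Null replicate 4. The cause was not tested for any of these. Since each member has a single probe, the mean over several probes of a gene was not run. The signal of the members lay well above background on all 8 arrays, and the number of arrays limits the precision.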
